A study of Mus musculus with 9 samples.

Results

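The levels of 6 genes of the red cell lineage, called members here, were followed in CD11b+ cells sorted from mouse spleen: Hba-a1, Alas2, Rhd, Epor, Klf1 and Gata1. They were chosen by symbol: a probe set was included when the annotation of the Affymetrix MG-U74Av2 array gave it exactly 1 of these names, and globin probe sets annotated to several genes were left aside. This gave 7 probe sets of the 12488 on the array, 2 for Gata1 and 1 for each other gene, for 6 of 8251 named genes. The list is a measure of red cell production in the spleen or of red cell RNA carried along in the sort, and CD11b, the integrin chain used for the sort, marks myeloid cells and not red cell precursors.

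The 9 arrays formed 3 groups of 3, all from spleens of female mice 8 to 12 weeks old. The cultured group held CD11b+ cells that came from tumor-bearing mice and were kept for 24 h in complete medium, the fresh group held such cells without culture (0 h), and the tumor-free group held uncultured cells of mice without a tumor. Arrays are called here by group and replicate, as in cultured 3. The labels name neither the tumor nor a mouse strain, and cells of tumor-free mice were not cultured, so culture and tumor cannot be told apart between the cultured and tumor-free groups. The labels do not tell whether replicates are separate mice, and the p-values therefore cover no more than the spread among these samples, which could be technical.

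Red cells develop in steps. Gata1 and Klf1 are transcription factors that switch on the program of the lineage, and Epor is the receptor through which erythropoietin keeps its precursors alive. Alas2 then makes the first committed step of heme synthesis, Hba-a1 encodes the alpha chain of hemoglobin, and Rhd belongs to the Rh complex of the red cell membrane. Reticulocytes, the youngest circulating red cells, have lost the nucleus but still carry globin RNA, and in mice the spleen can make red cells throughout life.

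GATA factors bind the letters GATA with flanking bases and Klf1 binds CACCC boxes, so the promoters of the members are shown with these letters. The windows below lie upstream of the annotated start in RefSeq promoters of mouse build GRCm38.p6, which covered 6 of 6 members, and they run 5′ to 3′ along the gene. Capitals mark AGATAA or TGATAA, the GATA motif, or CACACCC, a core of the CACCC box, on either strand, so that TTATCT and TTATCA are the same GATA motifs read on the opposite strand.
Hba-a1 (chr11:32283449-32283534, + strand): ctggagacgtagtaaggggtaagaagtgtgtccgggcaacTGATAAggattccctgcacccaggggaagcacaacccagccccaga
Alas2 (chrX:150547291-150547376, + strand): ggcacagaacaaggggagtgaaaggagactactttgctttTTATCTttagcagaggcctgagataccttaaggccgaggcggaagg
Rhd (chr4:134864453-134864535, + strand): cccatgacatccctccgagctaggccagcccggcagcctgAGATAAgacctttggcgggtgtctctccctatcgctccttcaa
Epor (chr9:21963585-21963670, - strand): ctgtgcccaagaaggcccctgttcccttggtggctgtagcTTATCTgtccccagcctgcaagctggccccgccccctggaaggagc
Klf1 (chr8:84901862-84901947, + strand): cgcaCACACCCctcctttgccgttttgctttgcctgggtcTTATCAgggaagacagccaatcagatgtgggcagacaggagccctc
Gata1 (chrX:7967940-7968026, - strand): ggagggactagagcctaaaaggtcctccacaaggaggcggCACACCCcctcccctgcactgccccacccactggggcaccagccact

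The GATA motif began 183 bases before the start of Hba-a1, 86 before Alas2, 43 before Rhd, 54 before Epor and 80 before Klf1. CACACCC began 116 bases before the start of Klf1 and 76 before Gata1. Over 300 bases, 250 before and 50 after the start, AGATAA or TGATAA was present in 5 of 6 members and in 18.6% of 32851 mouse promoters. AGATAA alone was present in 11.2% of promoters (3 members), TGATAA in 9.05% (2 members) and CACACCC in 7.95% (2 members). One or more of the 3 motifs, which do not overlap one another in these windows, stood in 6 of 6 members and in 25.3% of all promoters. A match is a description of letters, and these promoters were not assayed here.

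Each array gives 1 signal per probe set on a linear scale, and the deposited arrays had been scaled alike, with a median signal of 33.4 to 42.8. Group differences were fitted on log2(signal + 7.83) with limma across 8695 probe sets, an offset equal to percentile 20 of the signals, with Benjamini-Hochberg adjustment and a threshold of 0.05. The offset makes fold changes of dim genes smaller than those of the signals themselves. In each group 1 array stood apart from the other pair, which correlated with each other at 0.929 (cultured), 0.949 (fresh) and 0.957 (tumor-free): cultured 3, with a lowest correlation of 0.85 to its group, fresh 3 with 0.874 and tumor-free 1 with 0.824. The arrays were also divided at the median of their bacterial spike-in signal, which is added at the bench. The mean log2 spike-in signal was 9.86 to 10.5 on cultured 1 and 2, fresh 1 and 2 and tumor-free 1. It was 8.99 to 9.77 on cultured 3, fresh 3 and tumor-free 2 and 3. This cut was set by rule, not by a gap in the values, as it fell between tumor-free 2 (9.77) and fresh 2 (9.86). In each group the array that stood apart was also the only 1 of its spike-in class, so within a group both divisions are the same. The labels name no such classes, and values within each spike-in class are given below. CD11b+ myeloid genes were bright in every group, with summed signals over 14 genes of 36072 to 51996 on cultured arrays, 37573 to 49893 on fresh arrays and 36427 to 44762 on tumor-free arrays.

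Alpha globin and Alas2 were highest on the fresh arrays and on 1 cultured array. The 3 fresh arrays carried Hba-a1, Alas2, Rhd and Klf1 above all 3 tumor-free arrays, while Epor and Gata1 overlapped. No member passed the adjusted threshold in any of the 3 comparisons. In fresh against tumor-free cells 0 of the 6 tested members were called, where 1.9% of the probe sets were, and 3 of 6 (Hba-a1, Alas2 and Rhd) had an unadjusted p below 0.05, against 16.7% of the probe sets. Groups did not overlap, with fresh higher, for 4 of 6 members and for 9.34% of the probe sets, and with fresh lower for 0 of 6 and for 13.1% of them. The members were chosen with earlier results of these data known, so these and later member counts only describe them. In a bulk sample, more cells of a type and more RNA per cell cannot be told apart.

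**Figure D1:**
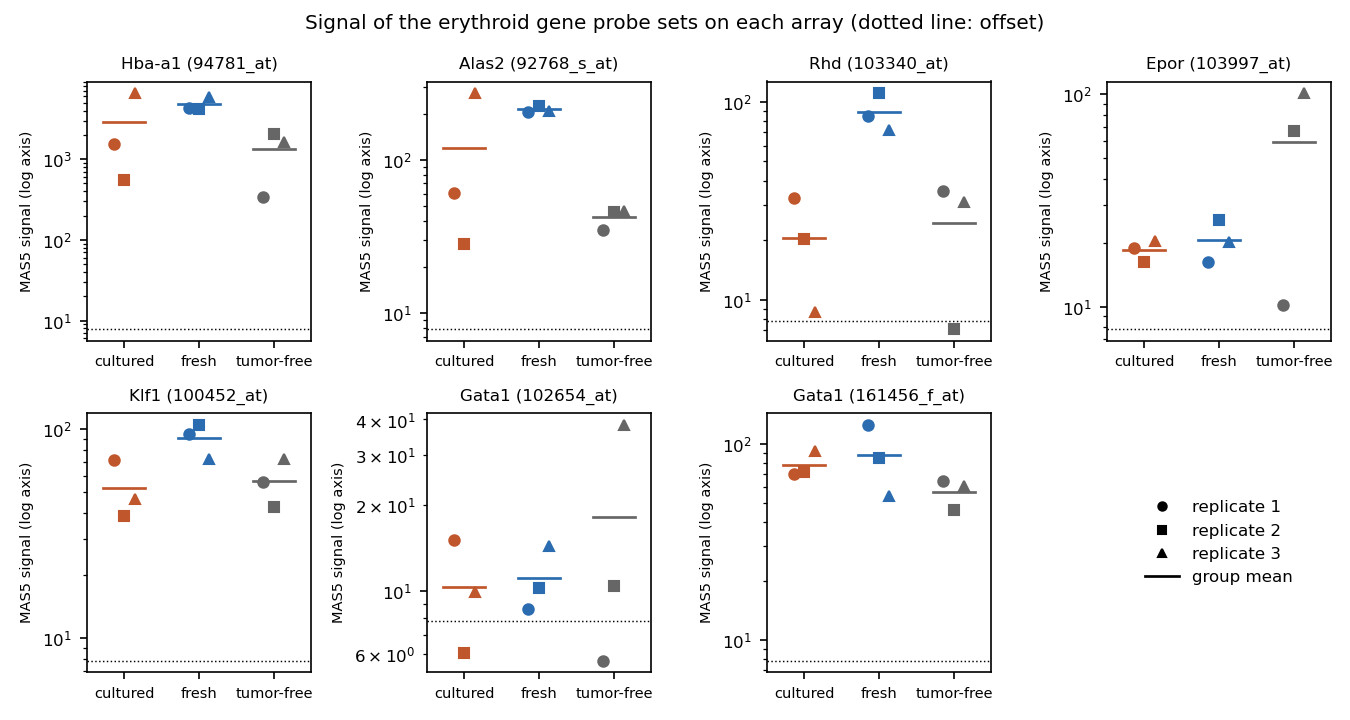
MAS5 signal (vertical log axis, with its own range in each panel) of the 7 member probe sets on the 9 arrays. Points are arrays, short bars are group means, and the dotted line is the offset of 7.83. Hba-a1 and Alas2 were high on the 3 fresh arrays and on cultured 3, and Rhd was high on the 3 fresh arrays alone.

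Hba-a1 (94781_at) encodes alpha globin, a subunit of hemoglobin. Its signal was 1522, 549 and 6541 on cultured 1, 2 and 3, 4269, 4203 and 5857 on the fresh arrays, and 336, 2028 and 1623 on the tumor-free arrays. The fresh arrays lay close together and above every tumor-free array, whereas the cultured arrays ran from below most tumor-free arrays to above every fresh array. Means were 2871 ± 3216 in cultured cells, 4776 ± 937 in fresh cells and 1329 ± 883 in tumor-free cells (SD, n = 3 each). The log2 difference was 2.18 ± 0.83 (SE) between fresh and tumor-free cells, with a 95% interval of 0.34 to 4.01 and an adjusted p of 0.218. Between cultured and fresh cells it was -1.41 (interval -3.25 to 0.42, adjusted p = 0.449), and between cultured and tumor-free cells 0.76 (interval -1.07 to 2.60, adjusted p = 0.735).

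The value of Hba-a1 moved with the spike-in class. Fresh minus tumor-free was 3.62 among arrays of high spike-in signal, where tumor-free 1 is the only tumor-free array, and 1.69 among those of low signal, where fresh 3 is the only fresh one. With that class as a block the difference was 2.81, with an adjusted p of 0.0212, the only 1 of 21 alternatives past the threshold. Cultured minus fresh was -2.20 in the high class and 0.16 in the low class, which holds cultured 3 and fresh 3. Without tumor-free 1 the fresh minus tumor-free difference was 1.38 (adjusted p = 0.314). Cultured minus fresh was -2.36 without cultured 3 and -0.58 without cultured 2, the arrays with the most and the least of this RNA in their group.

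Alas2 (92768_s_at), the red cell form of the enzyme that begins heme synthesis, was highest on the fresh arrays and cultured 3, as alpha globin was. On the other arrays the order of the 2 genes differed. Its signal was 60.8, 28.2 and 271 on the cultured arrays, 205, 225.5 and 207 on the fresh arrays, and 34.8, 45.4 and 46.1 on the tumor-free arrays. All 3 fresh arrays and cultured 3 stood well above the rest, and cultured 1 and 2 lay on both sides of the tumor-free arrays. Means were 120.1 ± 132 in cultured cells, 213 ± 11.2 in fresh cells and 42.1 ± 6.34 in tumor-free cells (SD, n = 3 each). The spread within the fresh and within the tumor-free group was small beside the difference of their means, and the fit's estimate of the spread also took in the cultured arrays.

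For Alas2 the log2 difference was 2.15 ± 0.58 (SE) between fresh and tumor-free cells, with an interval of 0.88 to 3.42 and an adjusted p of 0.0933. It kept this size within the high spike-in class (2.39) and within the low one (2.005). Its adjusted p was 0.00481 in a fit of those 2 groups alone, 0.00466 without cultured 3 and 0.0314 with a block for spike-in class, each on the other side of the threshold. This difference stayed short of the threshold under 17 of 21 alternatives, with an adjusted p of up to 0.258. Cultured minus fresh was -1.32 (interval -2.59 to -0.05, adjusted p = 0.284), and it was -2.15 without cultured 3 (adjusted p = 0.0074) and -0.67 without cultured 2. Cultured minus tumor-free was 0.83 (adjusted p = 0.563).

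Rhd (103340_at), the Rh protein of the red cell membrane, gave the other pattern. Its signal was 32.5, 20.2 and 8.68 on the cultured arrays, 84.6, 110.25 and 72.0 on the fresh arrays, and 35.3, 7.11 and 31.1 on the tumor-free arrays. The fresh arrays stood above all others, and cultured 3, the array with the most alpha globin, was the dimmest cultured array for Rhd. Means were 20.5 ± 11.9 in cultured cells, 88.9 ± 19.5 in fresh cells and 24.5 ± 15.2 in tumor-free cells (SD, n = 3 each), and the signals on cultured 3 and tumor-free 2 were close to the offset.

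The log2 difference for Rhd was 1.71 ± 0.46 (SE) between fresh and tumor-free cells, with an adjusted p of 0.0953, and -1.85 ± 0.46 between cultured and fresh cells, with an adjusted p of 0.0613. Both groups were disjoint from the fresh one, and cultured and tumor-free cells differed by -0.14 (interval -1.16 to 0.88, adjusted p = 0.93). Cultured minus fresh was -1.63 in the high spike-in class and -2.27 in the low one, and fresh minus tumor-free was 1.27 and 1.73. Without tumor-free 1 fresh minus tumor-free was 1.99 (adjusted p = 0.0366), and without tumor-free 2, the dimmest array for Rhd, it was 1.22 (adjusted p = 0.315). The cultured against fresh difference was past the threshold under 7 of 20 alternatives, quantile normalization (adjusted p = 0.0391) and median centring (adjusted p = 0.0488) among them, over a range of 0.0219 to 0.199.

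Genes known from the exocrine pancreas, a tissue that lies against the spleen, were high on the same arrays. The 11 of this list, all measured, summed to 445 to 1098 on cultured arrays, 12962 to 21862 on fresh arrays and 529 to 775 on tumor-free arrays. By the same limma test, 10 of the 11 rose in fresh against tumor-free cells, and 10 fell in cultured against fresh cells. Over all probe sets 1.9% and 2.69% were called in these comparisons, in either direction. Reg2, a secreted protein of the pancreas, had 65.6, 5.40 and 4.99 on the cultured arrays, 4187, 3811 and 2735 on the fresh arrays and 3.84, 5.23 and 4.36 on the tumor-free arrays. A second Reg2 probe set was at 0.68 between fresh and tumor-free cells (adjusted p = 0.428), and its groups overlapped. Reg3b, of the same family, rose by 6.50 (log2) in fresh against tumor-free cells (adjusted p = 0.000263). These genes marked the same 3 arrays as Rhd, and their part in the Rhd values was not tested.

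Klf1 (100452_at), the transcription factor of red cell precursors, differed less between groups. Its signal was 71.6, 38.4 and 46.6 on the cultured arrays, 95.4, 105 and 72.4 on the fresh arrays, and 56.2, 42.6 and 71.9 on the tumor-free arrays. The fresh arrays were the top 3, though fresh 3 exceeded tumor-free 3 and cultured 1 by less than 1 signal unit. The log2 difference was 0.62 ± 0.30 (SE) between fresh and tumor-free cells (adjusted p = 0.325), -0.74 ± 0.30 between cultured and fresh cells (adjusted p = 0.245) and -0.12 between cultured and tumor-free cells (adjusted p = 0.904). The 95% interval was -0.05 to 1.29 for fresh against tumor-free cells and -1.41 to -0.07 for cultured against fresh cells.

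Gata1, the transcription factor that opens the red cell program, has 2 probe sets, which did not behave alike. The probe set kept by the filter on low values (161456_f_at) gave 70.6, 72.1 and 92.4 on the cultured arrays, 125, 84.6 and 54.3 on the fresh arrays and 64.5, 46.1 and 61.0 on the tumor-free arrays. The fresh arrays overlapped both other groups, and the cultured arrays all stood above the tumor-free ones. Its log2 difference was 0.50 between fresh and tumor-free cells (adjusted p = 0.428), -0.09 between cultured and fresh cells (adjusted p = 0.924) and 0.41 between cultured and tumor-free cells (adjusted p = 0.607). The other (102654_at) was left out by that filter, with 15.0, 6.02 and 9.88 on the cultured arrays, 8.61, 10.2 and 14.4 on the fresh arrays and 5.67, 10.4 and 38.3 on the tumor-free arrays. Fitted without the filter it gave -0.26 for fresh against tumor-free cells, the opposite sign, and the 2 probe sets correlated at -0.28 over the 9 arrays. The _f_ in the name of the kept one is Affymetrix's mark for probes shared within a gene family, so Gata1 is reported as uncertain.

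Epor (103997_at), the erythropoietin receptor, was the tested member with a negative difference between fresh and tumor-free cells. Its signal was 18.8, 16.3 and 20.4 on the cultured arrays, 16.2, 25.6 and 20.2 on the fresh arrays, and 10.2, 67.1 and 101 on the tumor-free arrays. The 6 arrays of tumor-bearing mice lay within a narrow range, above tumor-free 1 and far below tumor-free 2 and 3. The log2 difference was -0.90 ± 0.56 (SE) between fresh and tumor-free cells (adjusted p = 0.426), -0.10 between cultured and fresh cells (adjusted p = 0.957) and -1.01 between cultured and tumor-free cells (adjusted p = 0.463).

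Tumor-free 1 decided the Epor values. Without it fresh minus tumor-free was -1.68 (adjusted p = 0.0156) and cultured minus tumor-free -1.78 (adjusted p = 0.0131), and within the high spike-in class, where it is the only tumor-free array, the 2 differences were 0.65 and 0.49. Within the low class they were -1.69 and -1.68. Red pulp macrophages, which take up old red cells and recycle their iron, were divided between the tumor-free arrays in the same way: their 14 measured genes of 16 on the array summed to 4763 on tumor-free 1 and to 14582 and 15750 on tumor-free 2 and 3. Spic, a transcription factor that defines these cells, had 11.8, 623 and 684 on tumor-free 1, 2 and 3. The part of these cells in the Epor values was not tested.

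**Figure D2:**
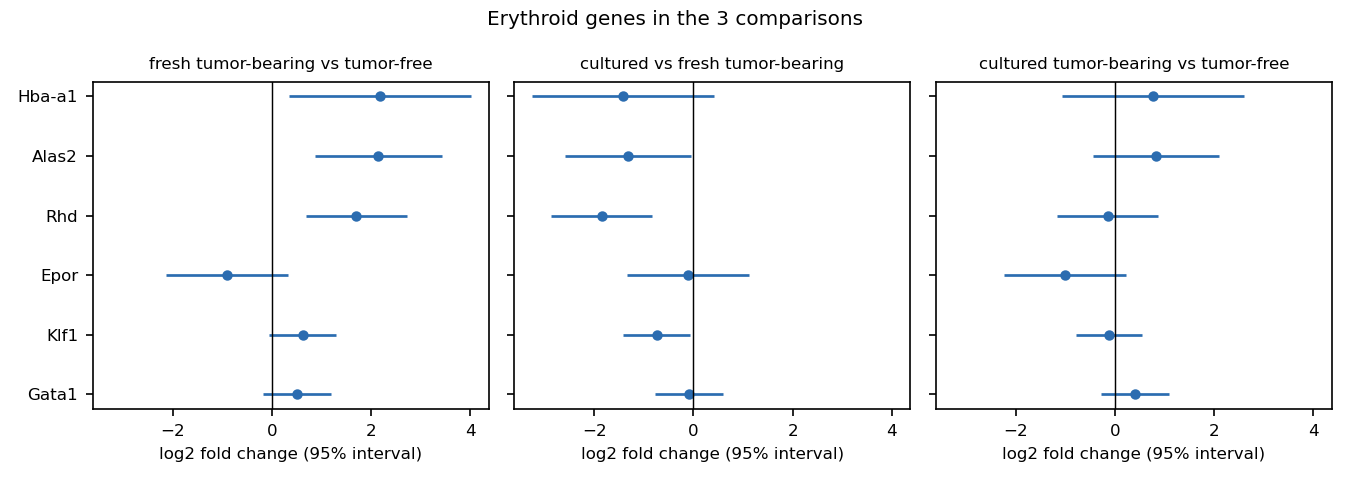
Log2 fold change (horizontal axis, from limma on the log2(signal + offset) scale) of the 6 tested member probe sets in 3 comparisons. Points are estimates and lines are 95% intervals, and the fresh against tumor-free intervals of Hba-a1, Alas2 and Rhd and the cultured against fresh intervals of Alas2, Rhd and Klf1 did not reach 0 before adjustment for the number of probe sets.

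After 24 h of culture all 6 tested members had a negative log2 difference against fresh cells, between -1.85 for Rhd and -0.09 for Gata1, and the signs of Epor and Gata1 each changed when 1 fresh array was left out. In cultured against fresh cells 0 of 6 members were called, against 2.69% of the probe sets, and 3 of 6 (Alas2, Rhd and Klf1) had an unadjusted p below 0.05, against 16.3% of them. Cultured and fresh arrays did not overlap, with cultured lower, for 2 of 6 members (Rhd and Klf1) and for 8.81% of the probe sets, and with cultured higher for 0 of 6 and for 13.4%. Between cultured and tumor-free cells 0 of 6 members were called, against 1.23%, and 0 of 6 had an unadjusted p below 0.05, against 14.1%. There the groups did not overlap, with cultured higher, for 1 of 6 (the kept Gata1 probe set, against 10.3% of the probe sets), and with cultured lower for 0 of 6, against 8.2%. The 3 comparisons share arrays, so their values are not independent of one another.

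Alpha globin and Alas2 were separated from Rhd and the transcription factors on cultured 3. Relative to the mean of cultured 1 and 2, this array was higher by 2.83 (log2) for Hba-a1 and by 2.49 for Alas2, at percentiles 99.5 and 99.1 of all 8695 probe sets. The same difference was 0.16 for Epor, 0.34 for the kept Gata1 probe set, -0.15 for Klf1 and -1.03 for Rhd, at percentiles 64.9, 73.9, 44.9 and 7.1. Over all probe sets it had a median of -0.08, with a 5th percentile of -1.16 and a 95th of 1.33, so that Hba-a1 and Alas2 lay past its upper end and the others did not. This is 1 array against 2, chosen after its values were seen, and it has no test.

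Other red cell genes were on both sides of this division. Hbb-b2, a beta globin gene, was higher on cultured 3 than on the mean of cultured 1 and 2 by 2.45, Bpgm, the enzyme that makes the hemoglobin ligand bisphosphoglycerate, by 3.07, and Car2, a carbonic anhydrase, by 1.83. Cd24a was higher by 2.94, while Slc29a1 was at -2.49 and Ube2o at -1.11. Over the red cell lists described below, medians of this difference were 0.54 for globins, -0.14 for heme synthesis and -0.82 for iron. They were -0.02 for membrane, 0.09 for transcription factors, -0.19 for signaling and -0.35 for other enzymes. Signals of Bpgm were 4.53, 4.05 and 94.2 on the cultured arrays, 56.1, 35.0 and 86.2 on the fresh arrays and 5.72, 48.8 and 22.3 on the tumor-free arrays, so that cultured 3 lay with the fresh arrays. On cultured 1 and 2 and tumor-free 1 Bpgm was below the offset of 7.83. Rhag, the partner of Rhd in the membrane, had 58.0, 20.7 and 47.9 on the cultured arrays, 115, 149.6 and 99.1 on the fresh arrays and 50.7, 36.8 and 50.4 on the tumor-free arrays, and cultured 3 lay with cultured 1 and 2.

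Some genes outside the red cell lineage were also higher on cultured 3. Against the mean of cultured 1 and 2 it was higher by 3.29 for Ly6g, a neutrophil marker, by 3.97 for Prg2 of eosinophils, by 2.54 for Mcpt8 of basophils and by 2.78 for Top2a, a gene of dividing cells. Other genes of the same lists were not, as the eosinophil receptor Ccr3 was at -0.96, the mast cell protease Tpsb2 at -0.39 and Gata2 at -0.02. The median of this difference was 0.58 over 8 mast cell, basophil and eosinophil genes, 0.08 over the 14 CD11b+ myeloid genes that include Ly6g, 0.90 over 24 proliferation genes and 1.01 over 7 B cell genes. The actin 3′ to 5′ ratio, which is higher where RNA is more degraded, was 2.27, 2.36 and 1.16 on cultured 1, 2 and 3, 1.59, 1.58 and 1.35 on the fresh arrays, and 2.57, 0.994 and 1.19 on the tumor-free arrays. The arrays lowest in Hba-a1, namely cultured 1 and 2 and tumor-free 1, were those with the highest ratios. Tumor-free 2 and 3 had Hba-a1 signals of 2028 and 1623, below every fresh array, and low ratios of 0.994 and 1.19. The part of RNA quality in these values was not tested.

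The genes whose values over the 9 arrays were most like those of Hba-a1, by Pearson correlation on the log2 scale among 6370 other genes, were Hbb-b2 (0.975), Mkrn1 (0.967), Prom1 (0.960), Pglyrp1, a granule protein of neutrophils (0.949), and Adpgk (0.944). For Alas2 they were the adhesion receptor Cd44 (0.946), the division marker Mki67 (0.918), Pip4k2c (0.916), Hbb-b2 (0.907) and Hba-a1 (0.906). Of the 50 genes most like each, 3 for Hba-a1 and 2 for Alas2 belonged to the 77 other genes measured from the red cell lists. The arrays of a group share their source and treatment, so these correlations describe the 9 arrays and have no p.

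The same measure, applied to the other members after their values were seen, gave other neighbors. Genes most like Rhd were Clca3a1 (0.942), Reg3b (0.939), Tgfb1i1 (0.930), Pnliprp1 (0.928) and Hdlbp (0.923). Of its 50 nearest, 8 were among the 11 exocrine pancreas genes and 2 were red cell genes. Klf1 was nearest to Rab6a (0.949) and Bgn (0.946), with 3 pancreas and 3 red cell genes among its 50. Epor was nearest to Lpin1 (0.978) and Sh2b3 (0.970), an adaptor that restrains erythropoietin signaling, with 2 red pulp macrophage genes and 1 red cell gene among its 50. The kept Gata1 probe set was nearest to Cps1 (0.919) and Itga3 (0.912), with 0 red cell genes among its 50. Between members, Hba-a1 and Alas2 correlated at 0.91 and Rhd and Klf1 at 0.89, whereas Hba-a1 and Rhd stood at 0.24.

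The wider red cell program was read from 7 gene lists of 134 symbols, of which 86 were on the array and 78 were measured above the filter. The filter on low values left out Fech, Abcb10, Aco1, Epb42, Tal1, Kitl, Car1 and Hemgn, so these genes were not tested. In fresh against tumor-free cells 1 of 78 rose and 0 fell, where 1.9% of all probe sets were called in either direction. At an unadjusted p below 0.05, 14 genes were higher and 7 lower, that is 26.9% of the lists, against 16.7% of all probe sets. The median log2 difference was 0.37 over the lists and 0.01 over all probe sets. Fresh and tumor-free arrays did not overlap for 20 genes that were higher and 9 that were lower in fresh cells, together 37.2% of the lists, where 9.34% of all probe sets were higher and 13.1% lower without overlap. The lists were drawn up with results of these arrays known, so their counts describe them.

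**Figure D3:**
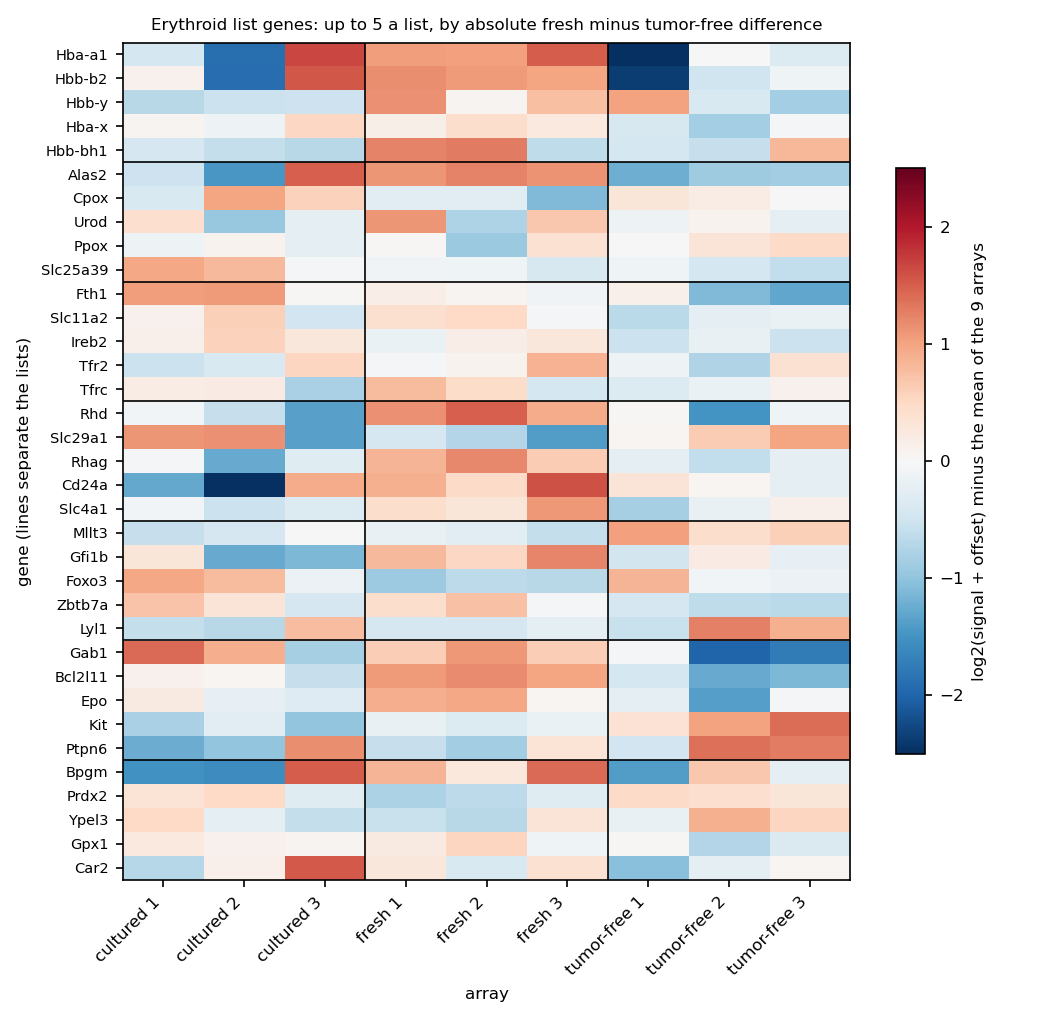
Log2(signal + offset) of red cell genes on each array (columns) minus the gene's mean over the 9 arrays, up to 5 genes a list by absolute fresh minus tumor-free difference. Red is higher and blue lower, colors end at 2.5 in either direction, and horizontal lines separate globins, heme synthesis, iron, membrane, transcription factors, signaling and other enzymes. Hba-a1, Hbb-b2, Alas2 and Bpgm were red on cultured 3 and Rhd, Rhag and Gfi1b were blue there.

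Among 5 globin genes, all 5 had a positive fresh minus tumor-free difference and 0 passed. Hbb-b2 had 1201, 289 and 3275 on the cultured arrays, 2501, 2329.9 and 2208 on the fresh arrays and 208, 785 and 1022 on the tumor-free arrays, with cultured 3 the highest and tumor-free 1 the lowest array, as for Hba-a1. Its log2 difference was 2.07 between fresh and tumor-free cells (adjusted p = 0.21). Of the embryonic globins, Hba-x was at 0.71 (adjusted p = 0.282), Hbb-y at 0.73 (adjusted p = 0.467) and Hbb-bh1 at 0.70 (adjusted p = 0.521). A second Hbb-y probe set gave 0.34. The 7 heme synthesis genes, Alas2 among them, had a median of 0.07, with Cpox, a later enzyme of the pathway, at -0.71, Urod at 0.43, Ppox at -0.42 and Slc25a39, a mitochondrial carrier, at 0.19, all short of the threshold. A second Urod probe set had the opposite sign, at -0.96 (adjusted p = 0.395), and a second Cpox probe set was at -0.23. Of 5 iron genes 0 passed, the ferritin heavy chain Fth1 being at 0.80, the iron importer Slc11a2 at 0.64, the iron regulator Ireb2 at 0.51 and transferrin receptor 2 (Tfr2) at 0.47. Tfrc, the transferrin receptor itself and brighter than Tfr2 on every array, was at 0.41 (adjusted p = 0.594). A second Fth1 probe set was at 0.29.

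The membrane list of 14 genes had a median of 0.39 and no call. Rhag was at 1.26 between fresh and tumor-free cells (adjusted p = 0.0978) and at -1.44 between cultured and fresh cells (adjusted p = 0.0528), the same signs as Rhd in both comparisons. Slc4a1, the band 3 anion exchanger of red cells, was at 0.90 (adjusted p = 0.195), Cd24a, a surface protein also found on myeloid cells, at 0.93 and Slc29a1, a nucleoside transporter, at -1.40, with a second probe set of Slc29a1 at 0.55. The 16 transcription factors had a median of 0.11 and no call. Mllt3 was at -1.05 (adjusted p = 0.0933), Gfi1b, a repressor needed for red cells and platelets, at 0.999, Foxo3 at -0.97 and Zbtb7a at 0.95, and Tal1 lay below the offset on all 9 arrays.

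Signaling held the only red cell list gene that passed in fresh against tumor-free cells. Bcl2l11, the cell death gene Bim, rose by 2.02 (adjusted p = 0.00502), with 559, 542 and 348 on the cultured arrays, 1105, 1191 and 1036 on the fresh arrays and 382, 214 and 234 on the tumor-free arrays. The call held with each of the 9 arrays left out in turn, at adjusted p up to 0.0375. A second Bcl2l11 probe set rose by 2.12 (adjusted p = 0.00897) and another was at 0.54. Gab1, a docking protein of receptor signaling, was at 2.03 (adjusted p = 0.126) and by a second probe set at 0.90. Epo, the hormone itself, was at 1.20 (adjusted p = 0.194). The first Gab1 probe set on tumor-free 2 and 3 (4.35 and 6.64) and Epo on tumor-free 2 (3.73) were below the offset. Kit, the stem cell factor receptor, was at -1.15 and Ptpn6, a phosphatase that dampens receptor signaling, at -1.10. Several of these genes are also used by myeloid cells. In the last list 0 of 16 genes passed, with Bpgm at 1.16, Prdx2, an antioxidant enzyme abundant in red cells, at -0.98, Ypel3 at -0.72 and Gpx1 at 0.57. A second Prdx2 probe set was at 0.60.

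After culture 2 of 78 list genes rose against fresh cells and 0 fell, where 2.69% of all probe sets were called in either direction. Neither gene is particular to red cells. Gclm, which makes glutathione, had 151, 538 and 243 on the cultured arrays, 58.8, 32.6 and 63.2 on the fresh arrays and 55.0, 56.7 and 55.7 on the tumor-free arrays, and rose by 2.28 against fresh cells (adjusted p = 0.0158) and by 2.13 against tumor-free cells (adjusted p = 0.0346). Acp5, an acid phosphatase of osteoclasts and macrophages, rose by 1.49 (adjusted p = 0.0206) and 1.68 (adjusted p = 0.0192). At an unadjusted p below 0.05, 8 genes were higher and 13 lower in cultured than in fresh cells, or 26.9% (16.3% of all probe sets), and 10 were higher and 5 lower in cultured than in tumor-free cells, or 19.2% (14.1% of all probe sets). Kit fell by 1.61 in cultured against tumor-free cells (adjusted p = 0.0406). Leaving out 1 array at a time ended this Kit call for 8 of 9 arrays (all but tumor-free 1), the Gclm call against fresh cells for 2 (fresh 1 and 2), and the Acp5 call against fresh cells for 4 (cultured 1 and 2 and fresh 1 and 2). Against tumor-free cells it ended the Gclm call for 5 (cultured 2, fresh 1 and 3 and tumor-free 2 and 3) and the Acp5 call for 4 (cultured 1 and 2 and tumor-free 2 and 3). List medians were -0.14 for cultured against fresh and -0.01 for cultured against tumor-free cells, beside 0.02 and 0.05 over all probe sets.

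**Figure D4:**
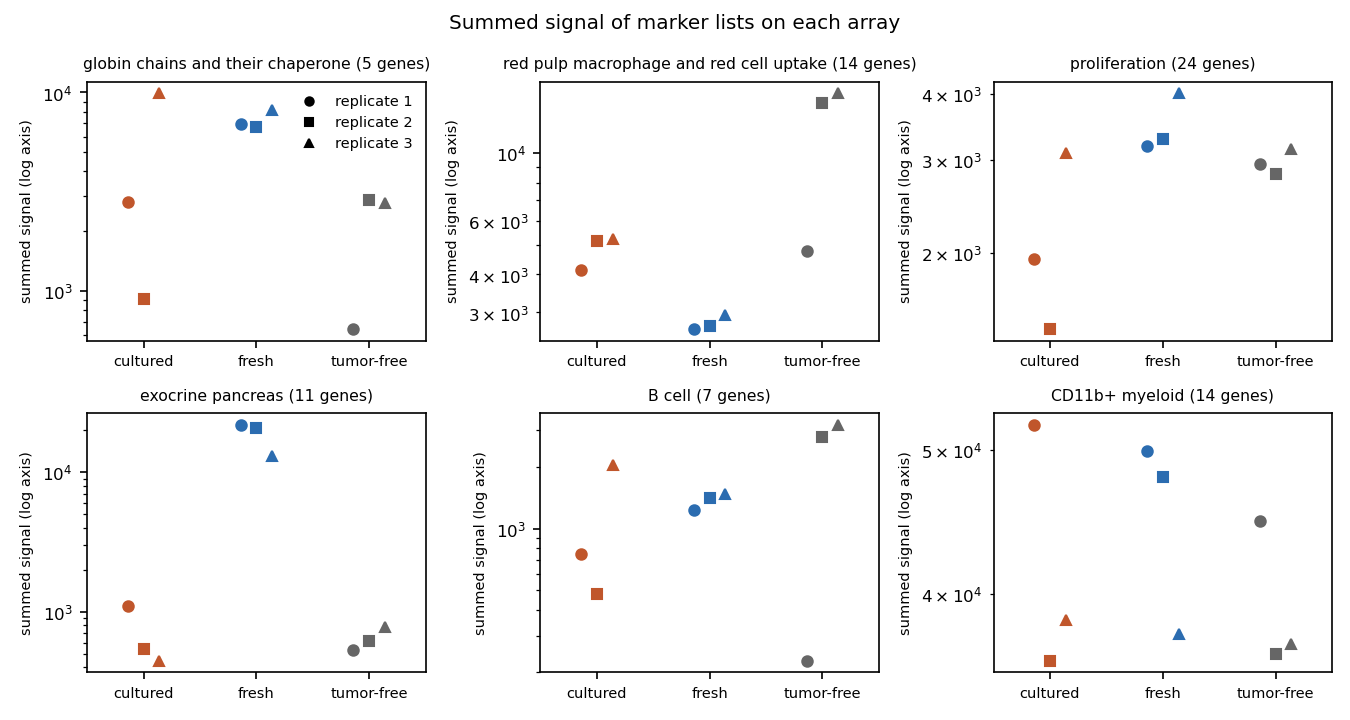
Summed signal (vertical log axis, with its own range in each panel) of 6 marker lists on the 9 arrays, each point 1 array. The globin sum was high on the fresh arrays and on cultured 3, the red pulp macrophage sum on tumor-free 2 and 3, and the exocrine pancreas sum on the 3 fresh arrays.

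Genes of red pulp macrophages, the cells that clear old red cells, were lower in fresh than in tumor-free cells. The 14 measured summed to 4139 to 5225 on cultured arrays, 2645 to 2950 on fresh arrays and 4763 to 15750 on tumor-free arrays, with a fresh minus tumor-free median of -1.47. In that comparison 4 of 14 fell and 0 rose, where 1.9% of all probe sets were called in either direction. Hmox1, which breaks down heme, was at -1.78 (adjusted p = 0.0257), the complement genes C1qa at -2.99 (adjusted p = 0.0357) and C1qb at -2.91 (adjusted p = 0.0213), and the mannose receptor Mrc1 at -1.80 (adjusted p = 0.0433). A second C1qb probe set was at 0.48. Of the 14 genes 11 fell when tumor-free 1 was left out while 0 did with fresh 1, fresh 2, tumor-free 2 or tumor-free 3 left out. The number was 1 without fresh 3, 3 without cultured 1, 2 without cultured 2 and 4 without cultured 3. After culture Hmox1 rose by 1.71 against fresh cells (adjusted p = 0.0232, lost without cultured 1, cultured 2 or any 1 of the fresh arrays) and Mrc1 fell by 2.29 (adjusted p = 0.0121, lost without cultured 2). Hrg was below the offset on every array, and Cd163 was not measured here.

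Of dividing cell genes, Mki67 had 82.9, 81.5 and 266 on the cultured arrays, 217, 218 and 246 on the fresh arrays and 121, 114 and 134 on the tumor-free arrays, so that cultured 3 lay with the fresh arrays, as for Alas2. Top2a had 6.53, 5.13 and 86.1 on the cultured arrays, 68.5, 84.4 and 80.5 on the fresh arrays and 49.5, 34.5 and 47.9 on the tumor-free arrays. The 24 proliferation genes summed to 1434 to 3093 on cultured arrays, 3185 to 4014 on fresh arrays and 2824 to 3144 on tumor-free arrays, with 0 of 24 passing in fresh against tumor-free cells and 1, the replication gene Mcm4, lower after culture at -1.49 (adjusted p = 0.0261, and not past the threshold without cultured 2 or any 1 of the fresh arrays). Over all probe sets 1.9% were called in fresh against tumor-free cells and 2.69% in cultured against fresh cells. Without cultured 3, 8 of the 24 were lower in cultured than in fresh cells. Cultured 3 thus had more of both the proliferation and the globin signal than cultured 1 and 2, and the part of dividing cells in these values was not tested.

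Platelet precursors share Gata1 and Gfi1b with red cells, and their markers were dim. Of 8 megakaryocyte genes on the array 4 were left out as too low, Pf4 and Vwf among them, and 4 (Fli1, Selp, Gp5 and Gp9) were measured; Itga2b was not measured here. The 4 had sums of 72.2 to 162 on cultured arrays, 123 to 149.9 on fresh arrays and 128 to 266 on tumor-free arrays. Gp9 was at 0.25, Fli1 at -0.63 and Selp at -0.49 between fresh and tumor-free cells, and none of the 4 passed. Mast cells, basophils and eosinophils also use Gata1 and Gata2, and their 8 measured genes of 16 summed to 444 to 1524 on cultured arrays, 1983 to 3130 on fresh arrays and 854 to 2444 on tumor-free arrays, with 0 calls. Mcpt8 was at 2.46 (adjusted p = 0.143) and 1.09 by a second probe set, Cpa3 at 0.90 and 0.025 by a second one, Prg2 at -1.59 and Gata2 at 0.19, while Epx was left out by the filter and Mcpt4, Tpsab1 and Il5ra lay below the offset on every array.

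Progenitor, lymphocyte and myeloid lists had few calls. Over all probe sets 1.9% were called in fresh against tumor-free cells and 2.69% in cultured against fresh cells. The 9 progenitor genes had 0 calls in fresh against tumor-free cells and a median of -0.15, Cd93 being at 0.81, and Cd93 fell by 2.02 after culture (adjusted p = 0.0375), a call that ended for 7 of 9 arrays left out, all but tumor-free 1 and 3. The 7 B cell genes summed to 479 to 2043 on cultured arrays, 1236 to 1469 on fresh arrays and 228 to 3193 on tumor-free arrays, with Cd22 at -1.76 and Cd79b at -1.08 and 0 calls in fresh against tumor-free cells, against 3 lower genes without tumor-free 1. T and NK cell genes were dim, with 7 of 13 measured, 0 calls, Cd28 at 0.66, Cd3d at 0.53 and Cd3e at 0.38, and Cd8a and Cd8b1 below the offset on every array. Of the CD11b+ myeloid genes 1, the neutrophil receptor Csf3r, fell in fresh against tumor-free cells, at -1.31 (adjusted p = 0.0413), with other probe sets of it at -0.08 and -0.89, and did not pass without any 1 of fresh 1, 2 or 3, tumor-free 2, tumor-free 3 or cultured 1. Cd14 was at 1.55 (adjusted p = 0.23), and Itgam, the CD11b gene itself, was at 0.66 (adjusted p = 0.404) with 363, 333 and 954 on the cultured arrays, 392, 413.5 and 585 on the fresh arrays and 373, 244 and 256 on the tumor-free arrays.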

How the data were processed

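The authors deposited array intensity as linear MAS5 signals, 1 for each probe set on each array. MAS5 is named in the submitters' processing notes, and its version is not given in the sources used here. RNA was extracted with TRIzol and 5 µg were labeled as biotin cRNA, per the labels' protocols. Each array's trimmed mean was 100.1, so the authors had scaled the arrays alike. No counts exist, and the number of arrays limits precision. Of 12488 probe sets, 10855 had 1 gene symbol, 396 several and 1237 none. The 66 control probe sets and the lowest 30% by mean were left out. The 3 group means were fitted to log2(signal + 7.83) in limma 3.58.1 (R 4.3.3) with an intensity trend and 6 residual degrees of freedom. A gene with several probe sets is given by the one with the highest mean, and further ones are given where their sign, call or size differs clearly. The fit was tested on simulated data. Columns of no sample numbered 0. The members and lists were chosen with earlier results of these data known. Named genes are every member, each list's called genes and its further largest fresh to tumor-free differences (up to 4 for red cell lists, 2 for others), fixed defining markers and the 5 genes most like Hba-a1 and Alas2. Genes named outside this rule include Car2, Ube2o, Tfrc, genes left out by the filter and the neighbors of other members. After group means were subtracted, same-numbered replicates correlated at -0.2 to 0.259 over 9 pairs. This cannot settle whether numbers pair samples, as 1 array in each group stood apart, and the main fit used no pairing. Alternatives were normalization, centring, offset, filter, trend, groups fitted, blocks and leaving out arrays.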

Additional observations from a re-analysis of the deposited data

How the results depend on the processing

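Of 372 member values under other settings, 339 kept their direction and side of the threshold, 21 passed the threshold that the reported value missed, 12 changed sign and 0 lost a call; 4 of 18 member results kept both throughout. Medians over all probe sets stayed within 0.09 of 0 under every setting. Rhd and Epor gave no value with the lowest 50% left out. Every sign change concerned a difference that missed the threshold both ways, and the cause was not tested. In cultured against tumor-free cells, the 2 closest arrays per group (chosen after seeing the data) gave -0.98 for Hba-a1, -0.11 for Alas2 and 0.48 for Rhd, and leaving out 1 array gave -0.18 to 1.60 for Hba-a1, -0.63 to 0.20 for Rhd and -0.34 to 0.048 for Klf1. In cultured against fresh cells leaving out 1 array gave -0.22 to 0.018 for Epor and -0.37 to 0.18 for Gata1. The replicate block gave 200, 258 and 144 called probe sets for fresh against tumor-free, cultured against fresh and cultured against tumor-free cells, beside 165, 234 and 107 without it, and 0 members passed. The same 3 counts were 277, 556 and 177 with the spike-in block and 2141, 1368 and 1813 with the 2 closest arrays, and the third was 14 with only the 2 groups compared. Leaving out 1 array gave 62 to 624, 74 to 489 and 21 to 529, the highest each time without tumor-free 1. Red cell list calls in fresh against tumor-free cells were 2 with only 2 groups, 3 with the spike-in block, 27 with the 2 closest arrays and 1 to 8 leaving out 1 array (8 without tumor-free 1). In cultured against fresh cells they were 5 with quantile normalization, median centring or the higher offset, 4 with the lowest 50% left out or only 2 groups, 7 with the spike-in block, 19 with the 2 closest arrays and 0 to 11 leaving out 1 array (11 without cultured 3). In cultured against tumor-free cells they were 0 with only 2 groups, 25 with the 2 closest arrays and 0 to 9 leaving out 1 array (9 without tumor-free 1). With the 2 closest arrays, Alas2 (adjusted p = 0.0034), Rhd and Epor passed in fresh against tumor-free cells, Hba-a1 (-2.20, adjusted p = 0.00863) and Alas2 (-2.16, adjusted p = 0.00385) in cultured against fresh cells, and Epor (-1.83, adjusted p = 0.00745) in cultured against tumor-free cells.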
